A study of Rattus norvegicus with 16 samples.

Results

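The solitary nucleus (Sol) of the rat brainstem was profiled on 4 of the 16 arrays of the series, 1 array for each of 4 treatments. Male Wistar rats of 8 to 10 weeks received 1 of the treatments for 60 minutes, breathing 40% oxygen at 6 L/min throughout. The inhaled anesthetic sevoflurane was used at 2.4%, with rats that received O2 alone as its controls. The intravenous anesthetic propofol was given as a 10 mg/kg bolus and then infused at 36 mg/kg/hr. Its control rats received Intralipos, a 10% lipid emulsion, by the same bolus and rate. The lateral habenula (LHb), medial habenula (MHb) and medial vestibular nucleus (MVe) gave the other 12 arrays. Each region was cut by laser from frozen, Nissl-stained brain sections of 30 μm. The labels do not say how many rats were pooled on an array or which regions came from the same rat.

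Values are log2 signals of 15037 genes, each read from its brightest probe. The pairs of Sol are sevoflurane against O2 and propofol against Intralipos, each taken as anesthetic minus control, and a difference of 1 on this scale is 2-fold. Of the 15037 genes, 564 reached 1 in either direction in at least 1 pair. The account below covers 420 of them: 4 that reached 1 in the same direction in both pairs, 16 that reached 1 in opposite directions, 131 past 1 in the sevoflurane pair and under 0.5 in the propofol pair, and 269 past 1 in the propofol pair and under 0.5 in the sevoflurane pair. The remaining 144 genes were past 1 in one pair and between 0.5 and 1 in the other, 68 with the same sign and 76 with opposite signs. There was no replicate array in Sol, so no difference between single arrays has a test or an error of its own.

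The solitary nucleus is the first relay of the brainstem for signals from the heart, lung and gut, which reach it through the vagus and glossopharyngeal nerves. It holds noradrenergic neurons, which make noradrenaline through the enzymes encoded by Th and Dbh, and peptide neurons such as those that express preproglucagon (Gcg). Neurons that receive strong input transcribe immediate early genes such as Fos and Egr1 within minutes, and these transcripts are widely used as a record of recent activity. Interferon-stimulated genes form a separate program, which type I and type II interferons switch on through STAT and IRF factors.

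The label of the region was checked against its markers. Of 9 measured markers of the solitary nucleus, 6 (Th, Dbh, Slc18a2, Calcr, Gcg and Npff) were higher in all 4 Sol arrays than in all 12 other arrays, while Glp1r, Hsd11b2 and Prlh were not. Th ranged from 10.89 to 11.40 in Sol, and Hoxb5, a gene of the caudal hindbrain, from 12.33 to 13.62 against at most 6.73 elsewhere. Of 4 measured markers of dorsal vagal motor neurons, 0 met this rule. It cannot be read for the cholinergic genes Chat, Slc18a3 and Slc5a7, which are bright in MHb (means of 11.55, 11.73 and 16.57). Slc18a3, the vesicular acetylcholine transporter, was between 7.85 and 8.83 in Sol, above every LHb array (at most 6.97) and every MVe array (at most 6.24). Chat (5.96 to 6.73 in Sol) and Slc5a7 (11.45 to 11.81) overlapped the LHb arrays (5.77 to 6.70 and 11.16 to 12.46). Isl1 was low throughout, 3.47 to 4.01 in Sol and at most 3.81 elsewhere. Rxfp3, the receptor of relaxin-3, lay between 5.55 and 7.73 in Sol and reached 5.95 elsewhere, so its ranges overlapped. The arrays form 2 sets that look separately normalized: the mean over all probes was 7.20 to 7.21 in the sevoflurane and O2 arrays and 6.97 to 6.99 in the propofol and Intralipos arrays. The medians over genes were 7.17 and 7.19 in the O2 and sevoflurane arrays of Sol and 6.75 and 6.82 in its Intralipos and propofol arrays. All differences below are taken within a set. Levels set across the sets carry the offset, both in this marker check and where an array is called the high or low one of the 4. All 37 such statements below, on 33 genes, held with each array at the same median and after quantile normalization of all arrays.

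Few genes reached 1 in the same direction in both pairs of Sol. In the sevoflurane pair 106 genes (0.705%) were at least 1 higher and 101 (0.672%) at least 1 lower, or 207 (1.38%) in all. In the propofol pair 234 genes (1.56%) were at least 1 higher and 143 (0.951%) lower, or 377 (2.51%) in all. The rule of 1 in the same direction in both was met by 4 genes (0.0266%) and the rule of opposite directions by 16 (0.106%). The same count of genes past 1 the same way in both pairs was 4 in LHb, 5 in MHb and 18 in MVe, and the count of opposite directions was 5, 14 and 8. Across genes, which are not independent replicates, the Pearson correlation of the pairs of Sol was -0.04, and 48.5% of genes had the same sign in both.

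**Figure D1:**
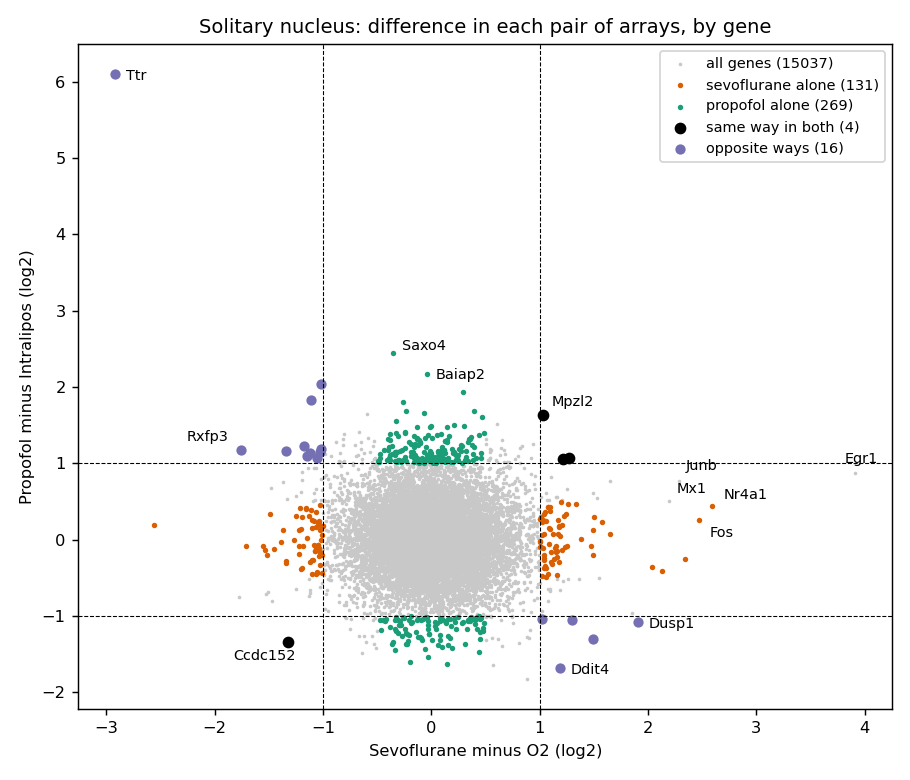
Difference of each of the 15037 genes in the solitary nucleus, sevoflurane minus O2 (x axis, log2) against propofol minus Intralipos (y axis, log2), with dashed lines at 1 and -1. Black points are the 4 genes past 1 the same way in both pairs, violet the 16 in opposite ways, orange the 131 and green the 269 past 1 in one pair and under 0.5 in the other; Ttr stands alone at the upper left and Egr1 at the far right.

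Dim genes supplied many of these differences. Among the 7376 genes whose mean over the Sol arrays was under the median of all gene values (6.86), 1.98% were past 1 in the sevoflurane pair and 3.0% in the propofol pair, against 0.796% and 2.04% of the 7661 genes at or above it. Olfactory and vomeronasal receptor genes, which the nose and not the brainstem uses in bulk, had a median level of 3.86, and 1.65% and 2.86% of these 1155 genes were past 1. Of the 70 genes higher after sevoflurane alone, 31 reached the median level in at least 1 of the 4 Sol arrays, as did 22 of 61 that were lower. The counts were 114 of 165 for genes higher after propofol alone and 36 of 104 for genes lower. Named genes of these sets are limited to those that reached it or that stand on a gene list.

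The 4 genes past 1 the same way in both pairs were Mpzl2, Txnrd3, Acta1 and Ccdc152, and the set depended on the scaling of the arrays. With each array at the same median 2 met the rule, Ccdc152 and Mpzl2, and after quantile normalization of all arrays 2 did, Ccdc152 and Txnrd3. Mpzl2, a cell adhesion protein of epithelia, had levels of 4.59 (O2), 5.62 (sevoflurane), 4.57 (Intralipos) and 6.20 (propofol), so both anesthetic arrays stood above both controls. Txnrd3, a thioredoxin reductase, had 5.52, 6.79, 6.28 and 7.35 in the same order. Acta1, the actin of skeletal muscle, had 6.48, 7.70, 5.73 and 6.79. Ccdc152, a gene that overlaps the selenoprotein P gene in mammals, had 5.44, 4.11, 4.46 and 3.12 and was the 1 gene lower in both. Ccdc152 and Mpzl2 stayed under the median of all gene values in all 4 arrays. The smaller of the 2 differences was 1.03 for Mpzl2, 1.05 for Acta1, 1.06 for Txnrd3 and -1.33 for Ccdc152. Just outside the rule stood Grem1 (0.94), RT1-M5 (-0.94), Uros (0.92), Clec3a (-0.92) and Egr1 (0.87).

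The LHb, MHb and MVe arrays, which played no part in choosing these genes, were fitted together with limma, regions standing in for replicates. The mean anesthetic effect there was 0.04 ± 0.13 (SE, n = 3 regions) for Mpzl2, -0.0029 ± 0.14 for Txnrd3, -0.04 ± 0.21 for Acta1 and -0.18 ± 0.20 for Ccdc152 (limma adjusted p = 0.983, 0.998, 0.986 and 0.930). None of the 4 passed there (0 called of 15037 genes, 0%, and 894 genes, 5.95%, at an unadjusted p under 0.05). The difference of the Sol effect from the other regions was fitted on all 16 arrays, and 0 genes passed it (612, or 4.07%, at an unadjusted p under 0.05).

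Immediate early genes held the largest gains of the sevoflurane pair. Egr1, a zinc finger transcription factor, had a level of 8.29 in the O2 array and 12.20 in the sevoflurane array, a difference of 3.91 or 15.1-fold. In the other set it had 9.46 with Intralipos and 10.32 with propofol, a difference of 0.87. Egr1 was therefore the gene with the largest gain after sevoflurane and fell short of 1 after propofol.

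Nr4a1, an orphan nuclear receptor, had 6.85 (O2), 9.44 (sevoflurane), 5.90 (Intralipos) and 6.34 (propofol). Fos, a subunit of the AP-1 factor, had 6.63, 9.10, 7.23 and 7.48. In both genes the sevoflurane array stood above the other 3. Apold1, an early response gene of vessels and neurons, had 4.32, 6.66, 4.67 and 4.41, and Nr4a3, a relative of Nr4a1, had 6.95, 8.60, 7.15 and 7.22. Junb, another AP-1 subunit, was 2.28 higher after sevoflurane and 0.76 higher after propofol. Fosl2, also an AP-1 subunit, was 1.17 higher after sevoflurane and 0.25 after propofol, from levels of 4.70 and 3.63 in the control arrays.

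Of 50 measured immediate early genes, 36 were above 0 in the sevoflurane pair, with a median of 0.29, against 7438 of 15037 over all genes, with a median of -0.0042. There 8 were past 1, all higher, where 0.705% of all genes were. In the propofol pair 28 were above 0, against 7669 of 15037 over all genes. The median of the early genes was 0.05 there and turned to -0.03 with each array at the same median. Of them 2 were past 1, both lower (0.951% of all genes). These 2 were Dusp1, a phosphatase that switches off MAP kinases (-1.08), and Gadd45g, a stress sensor (-1.65). Fosb, which gives the long-lived AP-1 subunit, was 0.95 and 0.73 higher after sevoflurane and propofol, and the clock gene Per1 0.86 and 0.66. Arc, whose protein trims synaptic receptors, was 0.94 and 0.30 higher, from a level of 4.28 in the O2 array.

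**Figure D2:**
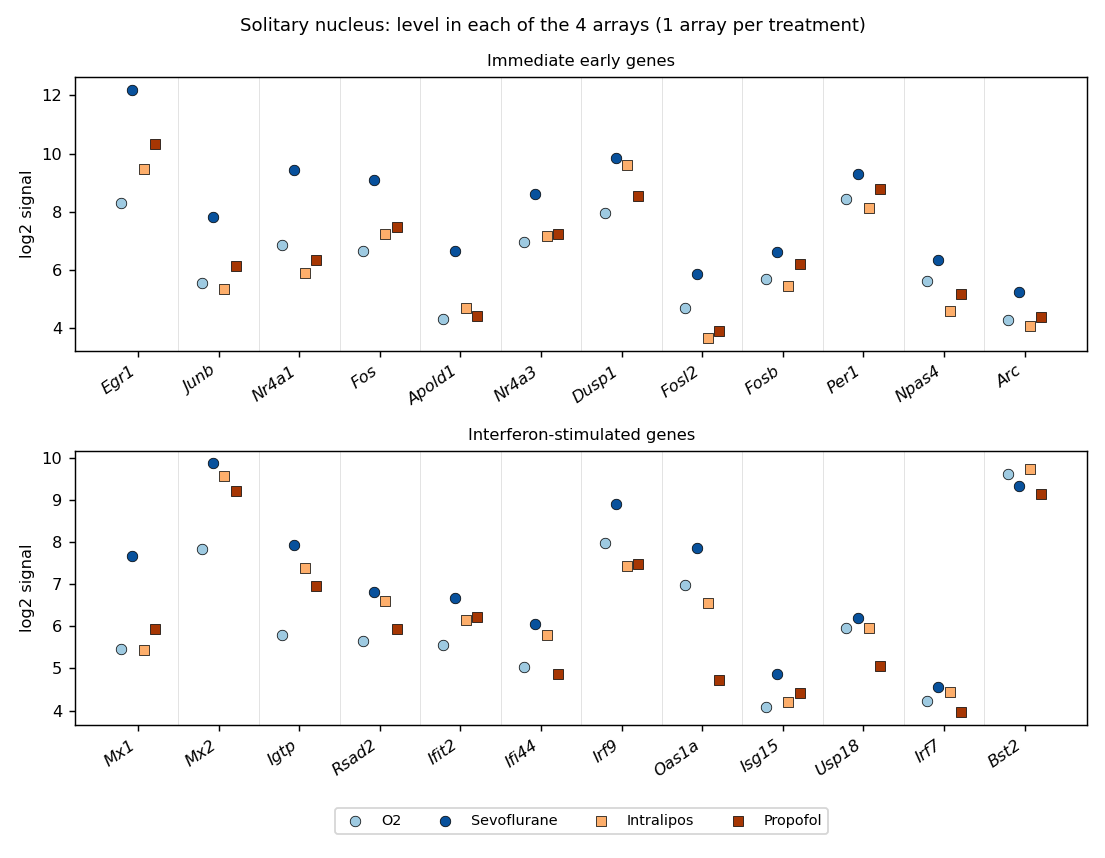
Level (log2 signal) of 12 immediate early genes (top) and 12 interferon-stimulated genes (bottom) in the 4 arrays of the solitary nucleus, 1 point per array: O2 and sevoflurane as circles, Intralipos and propofol as squares. The sevoflurane array is the highest of the 4 for Egr1, Junb, Nr4a1 and Fos, and for Oas1a the propofol array is the lowest.

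No test set the early genes of Sol apart from those of the other regions. Fitted over the other 3 regions, the sevoflurane effect was 3.23 ± 0.80 for Egr1, 2.73 ± 0.81 for Nr4a1, 2.41 ± 0.72 for Fos and 1.72 ± 0.41 for Junb (limma adjusted p = 0.877, 0.880, 0.880 and 0.877). The Egr1 difference was 1.49 in LHb, 3.04 in MHb and 5.17 in MVe after sevoflurane. After propofol it was 2.06 in LHb, 0.11 in MHb and 4.56 in MVe, beside 0.87 in Sol. In the fit of 16 arrays the mean Sol effect of Egr1 was 2.39 ± 0.65 (limma adjusted p = 0.999), and it differed from the mean of the other regions by -0.35 ± 0.75. The single gene called by limma on the 4 Sol arrays alone was Egr1 (2.39 ± 0.39, adjusted p = 0.0182), a fit with 1 residual degree of freedom in which limma drew each gene's spread towards that of all genes. Genes were chosen on these same arrays, so this p-value is no test of Egr1, whose pairs themselves gave 3.91 and 0.87.

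The promoters of Egr1, Nr4a1, Apold1 and Junb are shown because these genes had the largest differences in the sevoflurane pair among early genes with an entry in the promoter table. Each is the 250 bases before the gene's start in RefSeq on the rat build GRCr8, with motif letters in capitals. The partial CRE (TGACG, on either strand) is the opening stretch of the palindrome TGACGTCA that CREB binds, and the CArG box is the site of serum response factor. Of 50 measured early genes, 38 had an entry.
Egr1 (chr18:26736828-26737077, plus strand): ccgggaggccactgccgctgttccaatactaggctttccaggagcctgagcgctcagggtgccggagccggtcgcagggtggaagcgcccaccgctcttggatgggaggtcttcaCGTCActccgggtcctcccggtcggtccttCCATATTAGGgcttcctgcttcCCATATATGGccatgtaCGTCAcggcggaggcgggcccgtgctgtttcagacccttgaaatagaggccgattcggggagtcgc
Nr4a1 (chr7:134259888-134260137, plus strand): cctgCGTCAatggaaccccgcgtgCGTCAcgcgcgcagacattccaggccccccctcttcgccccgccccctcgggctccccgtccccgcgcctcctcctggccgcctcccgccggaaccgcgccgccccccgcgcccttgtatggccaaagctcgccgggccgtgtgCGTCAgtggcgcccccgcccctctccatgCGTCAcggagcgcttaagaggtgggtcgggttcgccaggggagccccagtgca
Apold1 (chr4:169552349-169552598, plus strand): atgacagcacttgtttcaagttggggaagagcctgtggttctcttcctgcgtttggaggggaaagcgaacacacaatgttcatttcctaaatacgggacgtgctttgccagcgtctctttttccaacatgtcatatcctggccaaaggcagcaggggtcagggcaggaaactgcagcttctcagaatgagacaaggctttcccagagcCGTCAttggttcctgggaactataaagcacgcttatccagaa
Junb (chr19:40080876-40081125, plus strand): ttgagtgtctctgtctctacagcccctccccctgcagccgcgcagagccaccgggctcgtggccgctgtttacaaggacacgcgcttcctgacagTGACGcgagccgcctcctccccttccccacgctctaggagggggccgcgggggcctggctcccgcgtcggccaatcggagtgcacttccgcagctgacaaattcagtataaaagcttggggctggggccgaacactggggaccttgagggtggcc

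The Egr1 window held 2 partial CREs and 2 CArG boxes, the Nr4a1 window 4 partial CREs, and the Apold1 and Junb windows 1 each. A partial CRE was present in 23 of the 38 early gene windows (60.5%), against 23.4% of 12435 windows of measured genes. The full palindrome TGACGTCA, which contains the partial CRE on both strands, was present in 5 (13.2%) against 2.36%, and the CArG box in 6 (15.8%) against 1.19%. These motifs were picked after the values had been seen, and a match describes the letters only.

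Interferon-stimulated genes were the second group that stood higher in the sevoflurane pair. Mx1, a GTPase that blocks viruses, had 5.47 (O2), 7.66 (sevoflurane), 5.43 (Intralipos) and 5.94 (propofol). Its relative Mx2 had 7.83, 9.86, 9.56 and 9.20, so that the O2 array was the low one of the 4. Igtp, a GTPase induced by interferon gamma, followed the same pattern with 5.79, 7.92, 7.37 and 6.96.

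Of 15 measured interferon-stimulated genes, 13 were above 0 in the sevoflurane pair, with a median of 0.79, and 5 were at least 1 higher, where 0.705% of all genes were: Mx1, Mx2, Rsad2 (1.18), Ifit2 (1.12) and Ifi44 (1.02). In the propofol pair 4 were above 0, with a median of -0.36 against 0.01 over all genes. Oas1a, an enzyme that senses double-stranded RNA, had 6.98 (O2), 7.86 (sevoflurane), 6.54 (Intralipos) and 4.72 (propofol), and its propofol difference of -1.82 was the 1 past 1 in that pair. Both medians kept their sign with each array at the same median (0.76 and -0.43) and after quantile normalization of all arrays (0.70 and -0.44). Markers of microglia had medians of -0.15 and 0.26 and markers of blood cells -0.18 and 0.14, and their part in the interferon values was not tested.

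In the other regions the sevoflurane medians of these 15 genes were -0.10 in LHb, -0.05 in MHb and 0.31 in MVe, and the propofol medians -0.76, -0.62 and -0.12. The sevoflurane effect over those regions was 0.18 ± 0.27 for Mx1, 0.29 ± 0.25 for Mx2 and 0.10 ± 0.22 for Igtp (limma adjusted p = 0.965, 0.939 and 0.979). The difference of Sol from the other regions, averaged over both anesthetics, was 1.55 ± 0.47 for Mx1 and did not pass (limma adjusted p = 1.00). Of the 15 genes, 0 were called in either contrast of the other regions, where 0.0133% of all genes were for sevoflurane and 0.00665% for propofol. At an unadjusted p under 0.05 stood 1 for sevoflurane, where 5.29% of all genes did, and 6 for propofol, where 5.28% did.

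The promoters of Igtp, Rsad2 and Ifi44, genes past 1 in the sevoflurane pair, are shown with the core of the interferon-stimulated response element (ISRE), GAAANNGAA on either strand, in capitals.
Igtp (chr10:42874797-42875046, plus strand): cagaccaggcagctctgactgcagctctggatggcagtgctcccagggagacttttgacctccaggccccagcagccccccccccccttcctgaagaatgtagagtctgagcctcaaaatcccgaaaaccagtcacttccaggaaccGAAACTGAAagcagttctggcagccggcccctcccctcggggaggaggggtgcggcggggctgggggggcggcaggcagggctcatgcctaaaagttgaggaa
Rsad2 (chr6:48788121-48788370, minus strand): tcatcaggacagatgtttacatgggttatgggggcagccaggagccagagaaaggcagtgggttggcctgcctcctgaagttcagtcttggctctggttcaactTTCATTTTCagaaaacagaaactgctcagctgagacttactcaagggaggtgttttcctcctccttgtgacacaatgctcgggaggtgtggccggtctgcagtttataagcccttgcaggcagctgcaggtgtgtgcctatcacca
Ifi44 (chr2:243303841-243304090, minus strand): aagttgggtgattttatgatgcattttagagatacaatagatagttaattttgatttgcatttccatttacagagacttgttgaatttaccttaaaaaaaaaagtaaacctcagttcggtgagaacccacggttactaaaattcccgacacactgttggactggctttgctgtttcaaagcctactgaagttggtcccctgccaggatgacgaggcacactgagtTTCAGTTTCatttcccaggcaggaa

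The core was found in 7 of 9 interferon-stimulated genes with an entry (77.8%) and in 7.02% of the windows of measured genes. A longer form of the element, searched first, was found in 7 of 9 (77.8%) against 3.08%. The Mx1 window, not shown, matched neither form. Of the 3 listed genes at least 1 higher after sevoflurane that had an entry, 2 held the core (66.7%). Igtp is not on the list. A glucocorticoid response element core (ACANNNTGT) was searched as well and was present in 4 of 38 early gene windows (10.5%) and 1 of 22 windows of glucocorticoid-responsive genes (4.55%), against 4.55% of measured genes.

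The 70 genes (0.466%) higher after sevoflurane alone included, beside those groups, several genes with no shared list. Abhd14a, a hydrolase-like protein, had 5.50 (O2), 6.99 (sevoflurane), 5.36 (Intralipos) and 5.16 (propofol). Osbp2, an oxysterol-binding protein, was 1.26 higher, Fcgrt, the receptor that recycles antibodies, 1.22, Mfng, which modifies Notch, 1.20, and Nubpl, an assembly factor of respiratory complex I, 1.18. Npy, the neuropeptide Y gene, had 9.85, 11.01, 10.92 and 10.45, so the O2 array stood below the other 3.

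The 61 genes (0.406%) lower after sevoflurane alone included receptors and genes of other tissues. Htr2c, a serotonin receptor, had 12.06 (O2), 10.69 (sevoflurane), 11.76 (Intralipos) and 11.88 (propofol), so the sevoflurane array was the low one. P2ry1, a receptor for ADP, was 1.20 lower, and Slc39a12, a zinc transporter of astrocytes and choroid plexus, 1.45 lower. Wt1, a transcription factor of mesothelium and kidney, had 7.46, 5.94, 5.42 and 5.22. The hemoglobin gene Hba-a3 had 13.29, 11.81, 11.21 and 11.55, and Folr1, a folate receptor of the choroid plexus, 6.02, 4.82, 4.49 and 4.78. In these 3 genes the O2 array stood above the other 3. The autophagy gene Atg7 was 1.25 lower, Dock8, a guanine exchange factor of leukocytes, 1.21, Chrac1, a chromatin subunit, 1.22, Vcf1 1.22 and Abhd18 1.14.

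The propofol pair had 165 genes (1.10%) that were higher alone. Saxo4, a gene of ciliary axonemes, had 7.04 (O2), 6.68 (sevoflurane), 5.33 (Intralipos) and 7.78 (propofol). Baiap2, an actin regulator of dendritic spines, had 7.13, 7.09, 5.45 and 7.62, and Cacng5, an auxiliary subunit of AMPA receptors, 10.17, 10.46, 9.09 and 11.03. In all 3 the Intralipos array stood below the other 3 arrays.

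The same held for Gfra2, a receptor for neurturin (10.61, 10.35, 8.84 and 10.65), and for Nxph4, a neurexin ligand (9.40, 9.80, 7.62 and 9.29). Pdyn, the dynorphin precursor, had 8.37, 8.30, 7.81 and 9.48, so there the propofol array was the high one. Penk, the enkephalin precursor, had 15.88, 15.50, 15.38 and 16.49. H2ax, the histone marked at DNA breaks, was 1.60 higher after propofol, Ankrd34a 1.55, Slc6a20a, an imino acid transporter, 1.51, and Myadm 1.48. Ak7, an adenylate kinase of cilia, was 1.16 higher. Calcr, the calcitonin receptor, had 8.64, 8.77, 6.07 and 7.36. Other genes of marker lists in this set were Tagln of mural cells (1.19 higher), Col1a2 of the meninges (1.06), Itgam of microglia (1.40), Hoxd3 (1.01), and Otx2, Clic6 and Sostdc1 of the choroid plexus, given below.

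The 104 genes (0.692%) lower after propofol alone were led by genes of varied function. Med20, a Mediator subunit, had 7.17 (O2), 7.14 (sevoflurane), 7.43 (Intralipos) and 5.89 (propofol). Pde5a, which degrades cyclic GMP, had 7.65, 7.32, 7.64 and 6.19. In both genes the propofol array stood below the other 3. Thsd7b was 1.41 lower, Mob2, a kinase regulator, 1.34, Aamdc 1.32, Gfod1 1.27, Swt1, an RNA endonuclease, 1.26, and Cdca7l 1.20. Hebp1, a heme-binding protein, had 5.89, 5.75, 7.63 and 6.41, with the Intralipos array the high one. Nfkbia, the inhibitor of NF-κB and a glucocorticoid target, had 7.45, 7.91, 9.30 and 8.00.

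Of these 131 and 269 genes, 0 were called by limma in the same contrast over the other 3 regions (2 genes, 0.0133%, were called for sevoflurane and 1 gene, 0.00665%, for propofol). At an unadjusted p under 0.05 stood 9 of the 70 and 1 of the 61 for sevoflurane, where 5.29% of all genes did. For propofol 14 of the 165 and 15 of the 104 did, where 5.28% of all genes did. The sign in the other-region fit matched that in Sol for 42 of 70, 34 of 61, 92 of 165 and 61 of 104 genes. No share over all genes was taken for this fitted sign, so these counts do not show whether the differences recur. The same sign in each of the 3 regions was found for 24.3%, 9.84%, 20.6% and 20.2%, against 15.3%, 13.1%, 14% and 12.2% of all genes. These shares are descriptions, since genes are not independent.

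Nfkbia had the largest fitted decrease among genes lower after propofol alone, -1.21 ± 0.23 (limma adjusted p = 0.429), with -1.27 in LHb, -1.64 in MHb and -0.72 in MVe. In the order O2, sevoflurane, Intralipos and propofol its levels were 8.21, 7.95, 9.82 and 8.54 in LHb. They were 7.57, 7.73, 9.12 and 7.48 in MHb, and 7.50, 8.35, 9.40 and 8.68 in MVe. Whether the propofol or the Intralipos array of a pair had moved was not tested. Plaat3, a phospholipase, had the largest increase among those higher, 1.00 ± 0.17 (0.202). Both were outside the adjusted threshold. Plaat3 was picked out after its values were seen.

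**Figure D3:**
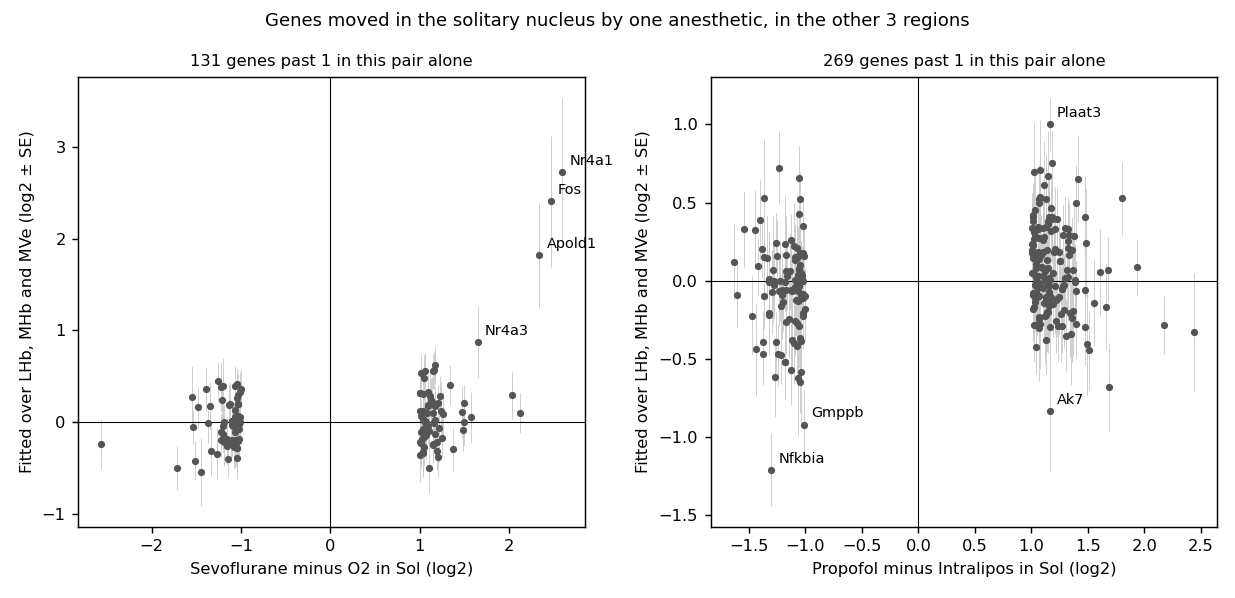
Genes past 1 in the solitary nucleus in the sevoflurane pair alone (left, 131 genes) and the propofol pair alone (right, 269 genes): difference in Sol (x axis, log2) against the effect fitted over LHb, MHb and MVe (y axis, log2, bars are ± 1 SE). Nr4a1, Fos, Apold1 and Nr4a3 lie far above 0 on the left, and Nfkbia lies lowest on the right.

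Of the 16 genes that reached 1 in opposite directions, 11 were lower after sevoflurane and higher after propofol, and 5 the reverse. The rule for naming genes covered Ttr and Rxfp3 among them, and the gene list members Dusp1, Ddit4, Kl and Dbh. It did not cover the set as such, and the rest were named after their values were seen. Ttr, the thyroid hormone and retinol carrier that the choroid plexus secretes, had the largest differences of all: 15.10 (O2), 12.18 (sevoflurane), 7.18 (Intralipos) and 13.28 (propofol). That is -2.92, or 7.54-fold lower, in the sevoflurane pair and 6.10, or 68.5-fold higher, in the propofol pair. The Intralipos array was far below the other 3, and the O2 array the highest.

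Kl, which encodes Klotho and is also made by the choroid plexus, followed the same order with 7.76, 6.42, 5.90 and 7.06. Perp, an epithelial junction protein, had 8.75, 7.74, 5.98 and 8.02, and Smad9, a BMP signal transducer, 6.68, 5.57, 4.19 and 6.02. In all 3 the O2 and propofol arrays were high and the Intralipos array lowest. Rhoj, Evi2b, Islr and Kit, the receptor of stem cell factor, were between 1.02 and 1.14 lower after sevoflurane and between 1.06 and 1.19 higher after propofol.

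Dbh and Rxfp3, both on the list of solitary nucleus and dorsal vagal markers, were in the same set, as was Gpr101, which is on no list. Dbh had 11.88 (O2), 10.70 (sevoflurane), 10.16 (Intralipos) and 11.39 (propofol). Rxfp3 had 7.31, 5.55, 6.56 and 7.73, or -1.76 and 1.17. Gpr101, an orphan receptor, had 10.29, 9.17, 9.51 and 10.64. For all 3 the O2 and propofol arrays were the high ones.

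The 5 genes with the reverse pattern were Dusp1, Ddit4, Acsm5, Rai14 and Tlr1. Dusp1 had 7.95 (O2), 9.86 (sevoflurane), 9.61 (Intralipos) and 8.52 (propofol). Ddit4, an inhibitor of mTORC1 that stress and glucocorticoids induce, had 10.64, 11.82, 12.27 and 10.59. Both were high in the sevoflurane and Intralipos arrays. Acsm5, a mitochondrial acyl-CoA synthetase, had 8.82, 10.12, 9.37 and 8.32. Rai14 differed by 1.49 and -1.31, and the pathogen receptor gene Tlr1 by 1.02 and -1.04. Rai14, Tlr1, Smad9 and Rhoj stayed under the median of all gene values (6.86) in all 4 arrays. Of the 16 genes past 1 in opposite directions, 12 reached it in at least 1 array.

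Ddit4 was the single member of any of these sets called in the other regions (propofol effect -1.45 ± 0.19, n = 3 regions, limma adjusted p = 0.0326, 1 gene of 15037 or 0.00665%). Its propofol difference was -1.83 in LHb, -1.30 in MHb, -1.22 in MVe and -1.69 in Sol, lower in 4 of 4 regions. Its sevoflurane effect there was 0.30 ± 0.19 (0.921), beside 1.18 in Sol. For Ttr the effects over the other regions were -0.71 ± 0.35 and 0.21 ± 0.35, and neither passed.

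Choroid plexus genes as a list followed Ttr. Of 16 measured, 2 were above 0 in the sevoflurane pair (median -0.49) and 13 in the propofol pair (median 0.61), with 3 at least 1 lower after sevoflurane (0.672% of all genes) and 7 at least 1 higher after propofol (1.56%). Otx2 had 5.70 (O2), 5.46 (sevoflurane), 4.26 (Intralipos) and 5.67 (propofol), Kcnj13 6.51, 5.58, 4.05 and 5.15, and Prlr 7.14, 6.32, 5.33 and 6.64. Clic6 was 1.07 and Sostdc1 1.01 higher after propofol. The log2 of the mean linear signal of the 16 genes, which Ttr dominates, was 12.42 in the O2 array, 10.94 with sevoflurane, 10.21 with Intralipos and 11.40 with propofol. In MVe, which like Sol lies near the fourth ventricle, the medians of the list were 0.11 and 0.73. They were -0.10 and -0.08 in LHb, and -0.16 and -0.07 in MHb.

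**Figure D4:**
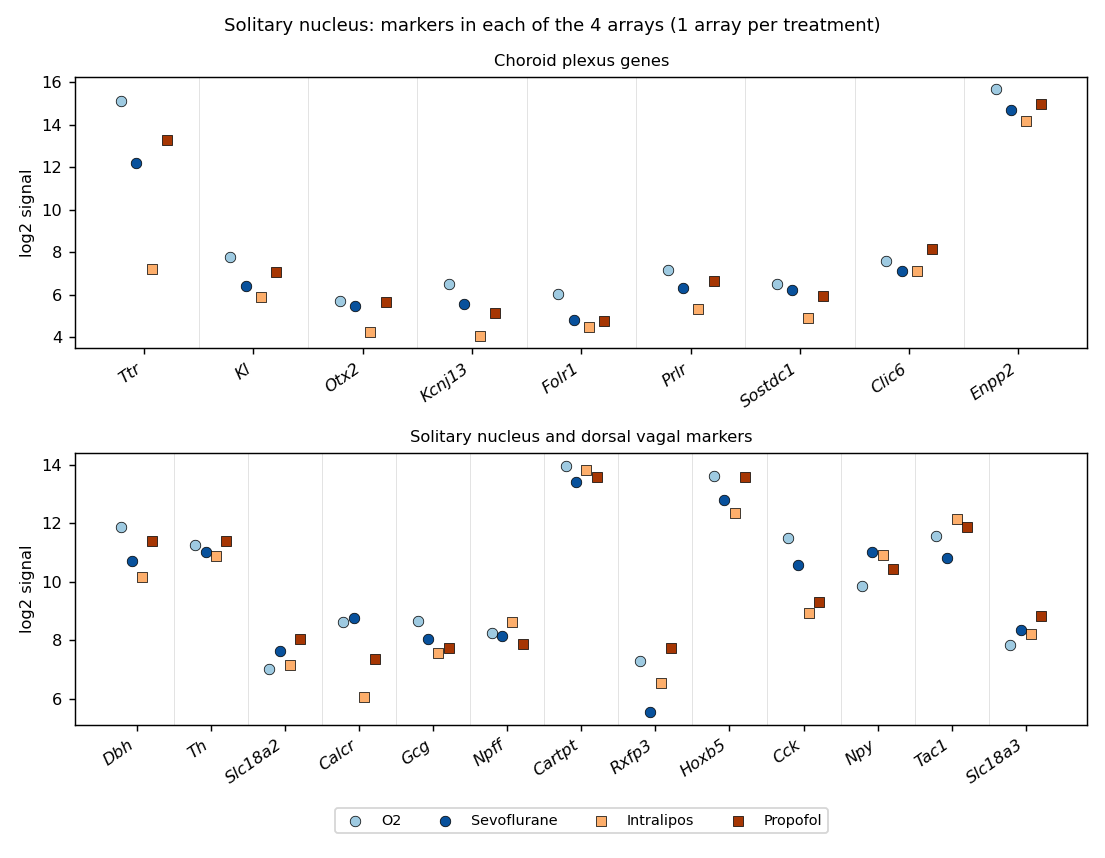
Level (log2 signal) of 9 choroid plexus genes (top) and 13 markers of the solitary nucleus and its surroundings (bottom) in the 4 Sol arrays, 1 point per array: O2 and sevoflurane as circles, Intralipos and propofol as squares. Ttr runs from 7.18 (Intralipos) to 15.10 (O2), and Dbh and Hoxb5 are lower in the sevoflurane and Intralipos arrays than in the O2 and propofol arrays.

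Markers of the solitary nucleus and dorsal vagal area had medians of the same signs as the choroid plexus genes. Of 30 measured, 8 were above 0 in the sevoflurane pair (median -0.28) and 19 in the propofol pair (median 0.42). Hoxb5 had 13.62 (O2), 12.80 (sevoflurane), 12.33 (Intralipos) and 13.57 (propofol). Cck, the cholecystokinin gene, was -0.92 and 0.38, and Th -0.22 and 0.51. Slc18a2, the vesicular monoamine transporter, was higher in both, by 0.62 and 0.91. Neuron markers had medians of -0.10 and 0.28 and meningeal markers -0.23 and 0.23. In bulk tissue fewer cells of a type and less RNA per cell cannot be told apart. The part of the cut area, or of choroid plexus and meninges on the section, in these differences was not tested.

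Neuropeptide genes showed 8 of 34 above 0 in the sevoflurane pair (median -0.28) and 23 in the propofol pair (median 0.15). Over all genes 49.5% and 51.0% were above 0. With each array at the same median the propofol median of the list was 0.08, beside -0.06 over all genes. After propofol 3 of 34 were at least 1 higher, where 1.56% of all genes were: Pdyn (1.66), Grp, the gastrin-releasing peptide gene (1.64), and Penk (1.11). After sevoflurane 1 of 34 was, Npy (1.16), where 0.705% of all genes were. Grp had 9.81 (O2), 9.22 (sevoflurane), 7.25 (Intralipos) and 8.90 (propofol), so the Intralipos array was the low one.

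Known targets of the anesthetics gave 1 gene past 1, a count that sets them apart in neither pair from the share of all genes (1.38% after sevoflurane and 2.51% after propofol). Of 15 measured GABA-A receptor subunits, the main target of propofol and a target of sevoflurane, 3 were above 0 in the sevoflurane pair (median -0.19) and 9 in the propofol pair (median 0.09). Gabre, the epsilon subunit, was the 1 of 15 past 1 after propofol, and 0 were after sevoflurane. It had 9.41 (O2), 8.74 (sevoflurane), 7.74 (Intralipos) and 8.85 (propofol). Of 13 two-pore potassium channels, 0 were past 1 in either pair, and of 16 ionotropic glutamate receptors 0 were, with Gria1 at -0.42 and 0.85.

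Glucocorticoid-responsive genes, many of them shared with stress responses, had 15 of 24 above 0 in the sevoflurane pair (median 0.25) and 7 in the propofol pair (median -0.30). At least 1 higher after sevoflurane were 2 of 24, Dusp1 and Ddit4, where 0.705% of all genes were. At least 1 lower after propofol were 3 of 24, the same genes and Nfkbia, where 0.951% of all genes were. Sgk1, a kinase that glucocorticoids induce, had 8.87 (O2), 9.25 (sevoflurane), 9.36 (Intralipos) and 9.05 (propofol), or 0.38 and -0.31. In the other regions its sevoflurane difference was 2.33 in LHb, 1.92 in MHb and 2.32 in MVe, and the fitted effect was 2.19 ± 0.21 (limma adjusted p = 0.000987, higher in 3 of 3 regions). The difference between that value and Sol was not tested for sevoflurane alone, and for both anesthetics together it was -0.56 ± 0.96 (limma adjusted p = 1.00). Cdkn1a, a cell cycle inhibitor, was at -0.23 in Sol beside 0.75, 1.42 and 1.37 in LHb, MHb and MVe.

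Other lists had medians between -0.18 and 0.19, beside -0.0042 and 0.01 over all genes. Astrocyte genes had medians of 0.06 and -0.18, oligodendrocyte genes -0.05 and -0.12, ependymal genes -0.10 and 0.13, and Hox genes -0.04 and 0.18. Of 12 measured astrocyte genes, 3 were above 0 in the propofol pair. With each array at the same median 1 was, and after quantile normalization 1 was. Vessel genes had medians of 0.02 and 0.02 and heat shock genes -0.14 and 0.07, and for both lists the propofol median turned below 0 with each array at the same median. Markers of the medial vestibular nucleus and neighbouring hindbrain had medians of -0.09 and 0.19. No member of these lists was past 1 in the sevoflurane pair, and 4 were in the propofol pair, where 2.51% of all genes were: Ak7, Hoxb5, Hoxd3 and Tagln.

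**Figure D5:**
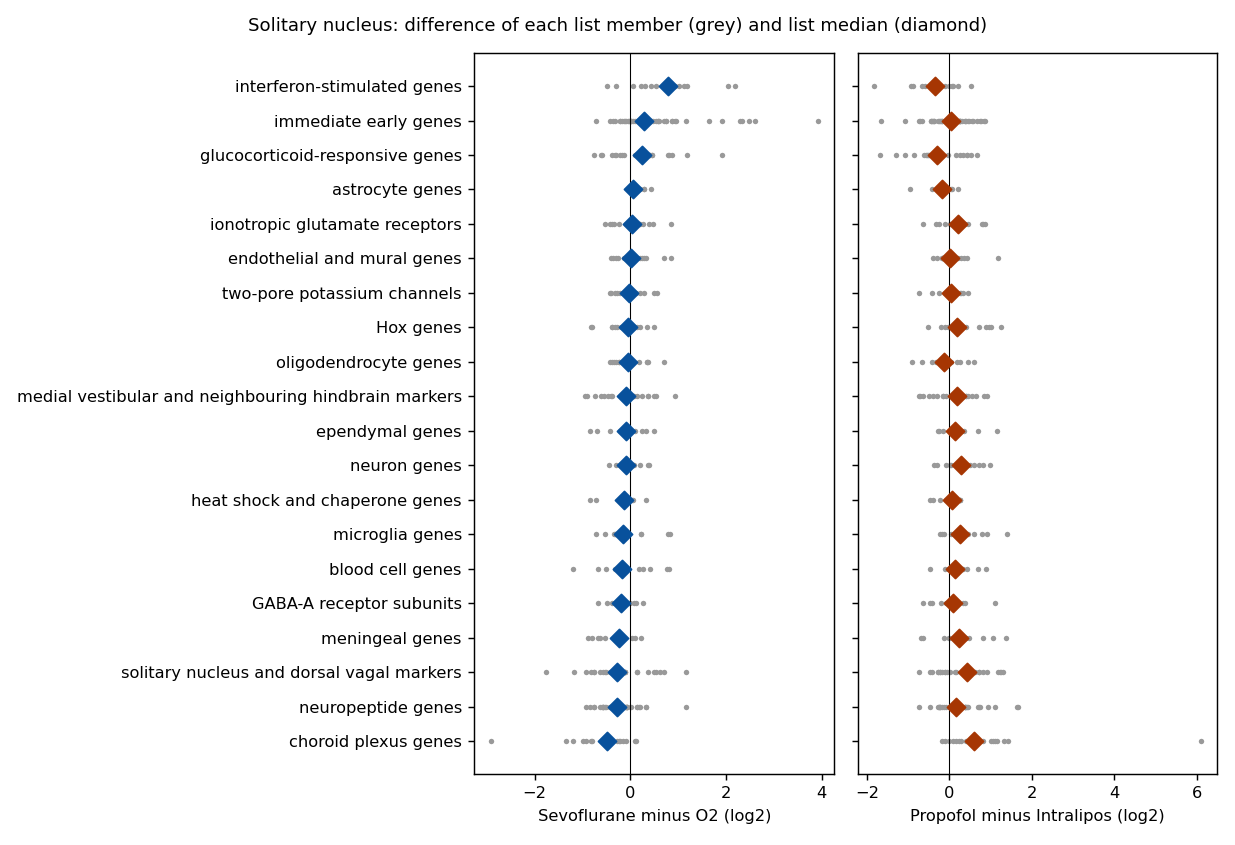
Differences in the solitary nucleus for 20 gene lists, sevoflurane minus O2 (left, log2) and propofol minus Intralipos (right, log2): grey points are single genes and diamonds list medians, ordered by the sevoflurane median. Interferon-stimulated genes have the highest sevoflurane median (0.79) and choroid plexus genes the lowest (-0.49) and the highest propofol median (0.61).

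The test across all genes called nothing in Sol. With the pairs taken as repeats, the fit of 16 arrays gave 0 genes at an adjusted p under 0.05 (0%) and 701 at an unadjusted p under 0.05, which is 4.66% of 15037. Ttr had an effect of 1.59 ± 1.33 and Mx1 of 1.35 ± 0.40 in that fit (both limma adjusted p = 0.999). Fitted without the Sol sevoflurane and O2 arrays, Ttr had an effect of 6.10, which is the difference of the 1 pair left in Sol. That difference also chose Ttr, and the spread of the fit comes from the other regions. The fit is therefore no test of Ttr in Sol.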

How the data were processed

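Per the submitters' processing notes, the authors made the deposited log2 signals in Affymetrix Expression Console 1.3.0, and these were used without further normalization. How probes were summarized and which genome build was used is not given in the sources used here. Nor is the log base, which was read off the values (2.47 to 19.93). Of 24834 probes, 94 were control probes, 15049 had 1 gene symbol, 0 several and 9691 none, and all 15049 were matched by gene identifier. The brightest probe per symbol was kept, giving 15037 genes, 46 of them with placeholder symbols that were counted and not named. The number of arrays limits the precision, with 1 array per region and treatment.

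Differences were taken within the sevoflurane and O2 arrays and within the propofol and Intralipos arrays. Linear models were fitted in R 4.3.3 with limma 3.58.1 (moderated tests, two-sided, Benjamini-Hochberg over 15037 genes, threshold 0.05). The fit of 16 arrays had terms for region by array set and an anesthetic effect per region (4 residual degrees of freedom). The fit of the 12 LHb, MHb and MVe arrays had treatment and region (6 residual degrees of freedom). Errors written with ± are limma standard errors. Arrays that share a rat would make the p-values too small. The fits were run on simulated data with independent noise of equal size in all arrays and the same effect for both anesthetics. That run checked whether the fits return the effect put in. It does not give error rates for these data, where the pairs differ.

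The members, lists and tests were chosen with earlier results of these data known. The rule named all genes past 1 the same way in both pairs. For genes past 1 in one pair alone it named the 10 largest differences in each direction among those that reached the median level. It also named members of gene lists, up to 4 members of each list described, and Egr1, Ttr and Rxfp3. It did not cover the set of opposite directions as such. Promoter windows and names came from RefSeq (GRCr8). Python 3.11.15, numpy 2.4.6 and pandas 2.3.3 were used, and figures were drawn with matplotlib 3.10.9.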

Additional observations from a re-analysis of the deposited data

Results flagged for a closer look

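The kinase gene Sgk1 differed between the anesthetics in LHb, MHb and MVe: its sevoflurane effect minus its propofol effect was 3.20 ± 0.30 on the log2 scale (n = 3 regions, limma adjusted p = 0.000664), with 2.19 ± 0.21 for sevoflurane and -1.01 ± 0.21 for propofol (adjusted p = 0.000987 and 0.613). Every 1 of the 3 regions had a higher value after sevoflurane and a lower one after propofol. In Sol the values were 0.38 and -0.31, each from a single pair of arrays.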

How the results depend on the processing

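The count of genes called by limma was 0 for the Sol effect, the difference of Sol from the other regions and the mean effect in the other regions. It became 1 for Sol on the 4 Sol arrays alone (Egr1), the arrays by which genes were chosen. It stayed 0 with each other region left out, trend and robust variance, each array at the same median, quantile normalization, brighter genes, all probes, and region-specific array set terms. Fits that left out a pair of Sol are not counted, since 1 pair then stands for Sol. Without its sevoflurane pair, Ttr had a Sol effect of 6.10 and a difference from the other regions of 6.35. The 4 genes past 1 the same way in both pairs became 2 with each array at the same median (Ccdc152 and Mpzl2), 2 after quantile normalization (Ccdc152 and Txnrd3), 2 with the filter on brightness (Acta1 and Txnrd3), 19 at a threshold of 0.8 and 0 at 1.5. The 400 genes past 1 in one pair alone became 203 with that filter, 1103 at 0.8, 26 at 1.5 and 234 with a limit of 0.25 in the other pair. The same changes took the 131 of the sevoflurane pair to 53, 388, 13 and 73 and the 269 of the propofol pair to 150, 715, 13 and 161. Fewer genes enter under a filter or a stricter threshold, and the cause of the changes with scaling was not tested. The 285 alternative values of single named genes kept their direction. That outcome was close to fixed in advance, since each difference was chosen as at least 1 on these same arrays. Averaging a gene's probes could change few genes, as 15049 probes gave 15037 genes. The kept directions are therefore no test of these differences. Statements on which Sol arrays stood higher were set against both rescalings after the data were seen, and all 37 held. No replicate number pairs the arrays, since no group had more than 1, and the fits compared anesthetic with control within regions. The number of arrays limits what can be called: with 1 array per group no difference in Sol has an error of its own.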
